A study of Arabidopsis thaliana with 47 samples.

Results

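The genes described here are those whose answer to a high dose of the peptide hormone RGF1 differed between gPLT2 and plt2 roots of Arabidopsis thaliana. plt2 is a mutant of PLETHORA 2 (PLT2). gPLT2 stands for plt2/gPLT2-GFP, the same mutant with a genomic PLT2-GFP transgene, so both lines carry the plt2 mutation. The comparison used 21 of the 47 libraries of the series, in 4 groups: gPLT2 with 5 nM RGF1 (n = 6), gPLT2 with mock (n = 5), plt2 with 5 nM RGF1 (n = 5) and plt2 with mock (n = 5). Seedlings had grown for 6 days and were then treated for 24 h. Each sample was RNA from 50 dissected root meristematic zones, the part of the root tip where cells divide. The labels do not name the number of independent transgenic lines, so the effect of the transgene and other differences between the lines cannot be told apart. They also do not say whether replicates were separate cultures, so p-values measure the spread between these samples.

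RGF1 is a sulfated peptide that root tip cells secrete. Leucine-rich repeat receptor kinases at the cell surface recognise it, and a mitogen-activated protein kinase cascade and reactive oxygen species carry the signal onward. PLETHORA transcription factors form a gradient from the stem cell niche upward and keep cells dividing, and RGF1 is known to widen that gradient. The study asked what PLT2 protein stability does for the growing root. For each gene, the response is the log2 fold change of 5 nM RGF1 over mock. The response difference is the response in gPLT2 minus the response in plt2, so a positive value means a higher response in gPLT2.

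The 21 libraries held 8201550 to 10332541 counts, of which 2476800 to 4577883 fell on nuclear loci. A pair of mitochondrial loci took 46% to 67.5% of the counts of a library, with medians of 58% in gPLT2 at 5 nM, 60% in gPLT2 mock, 59.6% in plt2 at 5 nM and 52.9% in plt2 mock. Levels are given as CPM, the counts of a gene relative to the nuclear counts of its library, scaled by TMM factors over all 47 libraries. On this scale 3 counts correspond to 0.655 to 1.22 CPM depending on the library. The tissue label was checked against markers. All 21 genes on a list for the G2/M stage of the cell cycle were measurable. Of 8 markers of the differentiated endodermis, MYB36 and ESB1 passed the expression filter. The others, including the 5 CASP genes, fell below it. Other lists of differentiated cells passed in part, with 5 of 10 xylem and secondary wall, 4 of 9 root hair and 3 of 6 phloem markers. Of 5 green tissue markers 1 passed. In bulk RNA, fewer cells of a type and less RNA per cell cannot be told apart.

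PLT2 itself checked the genotype labels. Its level ran from 50.7 to 71.0 CPM in gPLT2 at 5 nM, with a median of 60.4. It was 41.7, 47.9, 39.3, 46.1 and 40.7 CPM in gPLT2 mock, 4.61, 6.78, 7.21, 6.87 and 5.68 CPM in plt2 at 5 nM, and 5.95, 3.74, 10.9, 5.98 and 9.63 CPM in plt2 mock. Every gPLT2 library lay above every plt2 library, and plt2 libraries still held PLT2 reads. The response difference of PLT2 was 0.66 (SE 0.26) and did not pass the test (edgeR quasi-likelihood, adjusted p = 0.106).

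The response difference passed the test for 1644 of 16841 genes, or 9.76% (adjusted p under 0.05), and 4163 genes had an unadjusted p under 0.05. It was positive for 576 genes (3.42%) and negative for 1068 genes (6.34%). Among the 576, the median response difference was 0.85, with median responses of 0.82 in gPLT2 and -0.068 in plt2. Among the 1068, it was -1.02, with median responses of -1.22 in gPLT2 and -0.19 in plt2. The difference reached 2-fold for 749 of the 1644 genes, 205 positive and 544 negative, and 4-fold for 169 genes, 47 positive and 122 negative. The called share was lowest on chromosome 2, at 9.36%, and highest on chromosome 1, with 439 of 4327 tested genes. When libraries were scaled by their total counts, in which the mitochondrial pair dominates, 651 genes were called, 292 positive and 359 negative, and the median response difference of all genes stood at 0.22.

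**Figure D1:**
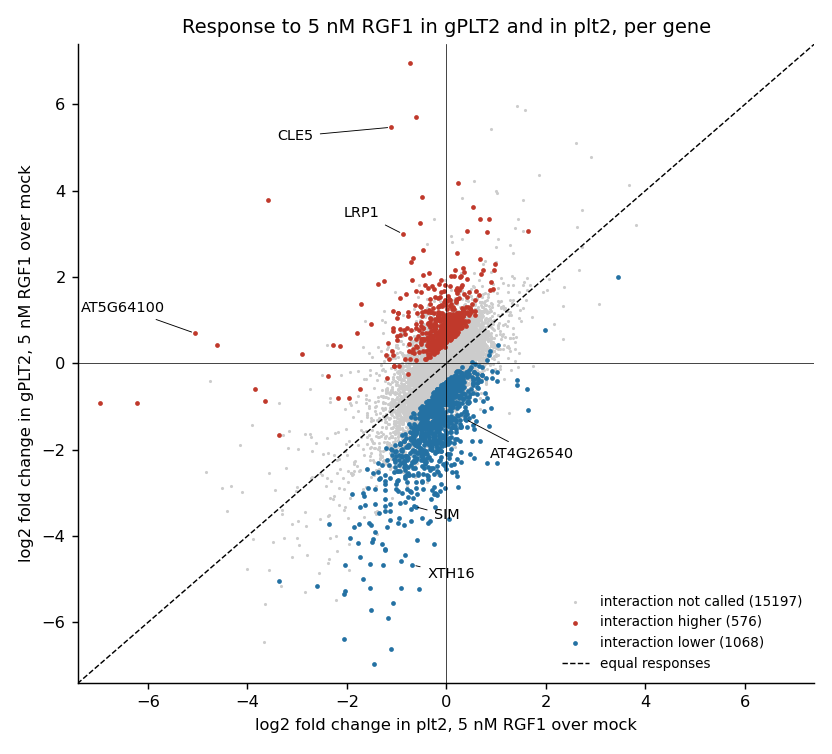
Response to 5 nM RGF1 of each tested gene, with the log2 fold change in gPLT2 on the vertical axis and in plt2 on the horizontal axis. Red points (interaction higher in the legend) are the 576 genes and blue points (interaction lower) the 1068 genes whose response difference passed the test, grey points the other tested genes, and the dashed line marks equal responses. Most coloured points spread along the vertical axis and lie close to 0 on the horizontal axis.

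Sorting the 1644 genes by the responses in each line describes how they came to differ. The responses share their libraries with the difference, so the sorting tests nothing further. The background is 46.4% of tested genes called in the gPLT2 response (21.7% higher, 24.7% lower) and 11.7% in the plt2 response (3.54% higher, 8.19% lower). Between the lines, 5.44% of tested genes were called under mock (2.7% higher in gPLT2, 2.74% lower) and 35.5% at 5 nM (15.9% higher in gPLT2, 19.6% lower). The largest class, 1263 genes (76.8%), passed the threshold in gPLT2 and not in plt2, 487 with a positive and 776 with a negative difference. In 259 genes (15.8%) both lines responded in the same direction, and 251 of these changed further in gPLT2. In 26 genes the lines responded in opposite directions. In 60 genes the threshold was passed in plt2 and not in gPLT2, and in 36 genes in neither line. The plt2 response count moves with the processing, from 1976 genes to 1272 with total-count scaling and to 4029 with the mitochondrial share as a covariate. Without plt2 mock replicate 3 it was 1363 genes, so the borders between classes are not firm.

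The 10 genes with the smallest p on the positive side were AT1G71695, LRP1, AT5G14920, AT5G42830, AT1G60730, AT5G01210, AT3G04165, AHP1, CLE5 and scpl35. AT1G71695 (chr1:26964087-26966688, plus strand, RefSeq TAIR10.1) encodes a class III peroxidase, an enzyme that uses or makes reactive oxygen species in the cell wall. Its level was 26.7 to 35.0 CPM in gPLT2 at 5 nM (median 29.7), against 6.21, 6.19, 3.24, 5.71 and 6.23 CPM in gPLT2 mock. It was 2.31, 3.39, 2.74, 2.91 and 3.1 CPM in plt2 at 5 nM, against 5.72, 4.54, 4.69, 3.78 and 4.06 CPM in plt2 mock. RGF1 libraries lay above mock without overlap in gPLT2 and below mock without overlap in plt2. The response difference was 3.12 (SE 0.29, adjusted p = 3.55e-08), made of a response of 2.44 in gPLT2 and one of -0.68 in plt2 that missed the threshold.

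AHP1 (chr3:7577712-7579789, minus strand), a phosphotransfer protein of cytokinin signalling, already differed between the lines under mock. Its level was 64.7 to 76.9 CPM in gPLT2 at 5 nM (median 73.3), against 12.1 to 26.1 CPM in gPLT2 mock (median 14.7). In plt2 at 5 nM it was 8.56, 4.93, 7.55, 8.99 and 5.42 CPM, against 5.03, 5.61, 8.12, 9.13 and 5.32 CPM in plt2 mock. The plt2 groups overlapped throughout, while in gPLT2 the lowest RGF1 library stood far above the highest mock library. The response difference was 1.93 (SE 0.29, adjusted p = 5.3e-05), and gPLT2 mock exceeded plt2 mock by 1.38 on the log2 scale (adjusted p = 0.00014).

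CLE5 (chr2:13252076-13252914, plus strand), a small secreted signalling peptide of the CLE family, was close to undetected in 3 of the 4 groups. In gPLT2 at 5 nM it reached 29.6 to 40.6 CPM (median 37.0), against 0.345, 0.326, 0.498, 2.04 and 0.813 CPM in gPLT2 mock. Every plt2 library at 5 nM stood at or under the 3-count floor, at 0, 0.616, 0, 0.264 and 0.258 CPM, and plt2 mock held 0 to 1.07 CPM. The test called the difference (adjusted p = 5.8e-05), and the fitted value of 6.58 depends on how near-zero counts are treated. LRP1 (chr5:3987375-3989876, minus strand), named for its expression in lateral root primordia, had 14.3 to 27 CPM in gPLT2 at 5 nM, against 0.69, 3.26, 3.73, 3.67 and 1.36 CPM in gPLT2 mock. It had 1.98, 2.16, 0.343, 1.59 and 1.03 CPM in plt2 at 5 nM, against 4.12, 1.87, 2.81, 2.2 and 1.77 CPM in plt2 mock. The treatments separated in gPLT2 and overlapped in plt2, and the difference was 3.87 (SE 0.52, adjusted p = 1.22e-05).

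A further 5 genes of the positive set had differences between 1.43 and 2.69. AT5G14920, a gibberellin-regulated family protein, had a difference of 1.76 (SE 0.24) and a level of 139 to 198 CPM in gPLT2 at 5 nM, with no library of the other groups above 87.3 CPM. The acyltransferase gene AT5G42830 differed by 2.69 (SE 0.38), the oxidoreductase gene AT1G60730 by 1.43 (SE 0.21) and scpl35, a serine carboxypeptidase-like gene, by 1.70 (SE 0.26). AT3G04165, annotated as an RNA of another kind than protein-coding, differed by 1.68 (SE 0.25). Adjusted p for these 5 genes lay between 1.75e-05 and 6.99e-05.

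The 10 genes with the smallest p on the negative side were XTH16, AT1G57590, AT5G35740, AT1G62480, CYCP4;1, AT4G11210, AT5G51490, BME3, PKS1 and AT1G62660. XTH16 (chr3:8550037-8551403, plus strand) encodes an enzyme that cuts and rejoins xyloglucan chains of the cell wall. Its level was 1.53 to 4.48 CPM in gPLT2 at 5 nM (median 2.66), against 83.8, 63.5, 64.5, 42 and 65.9 CPM in gPLT2 mock. It was 60, 52.4, 64.8, 53.4 and 44.6 CPM in plt2 at 5 nM, against 93.1, 76.6, 84.7, 112 and 68.2 CPM in plt2 mock. The treatments separated in both lines, and the fall was far larger in gPLT2, with a response of -4.67 against -0.69 in plt2. The response difference was -3.98 (SE 0.28, adjusted p = 4.72e-10).

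AT1G57590 (chr1:21327360-21329944, minus strand) is annotated as a pectin acetylesterase, another enzyme of the cell wall. It had 2.89 to 11.2 CPM in gPLT2 at 5 nM (median 6.44), against 153, 133, 104, 100 and 114 CPM in gPLT2 mock. In plt2 it had 146, 116, 98.8, 96.2 and 110 CPM at 5 nM, against 106, 95.8, 163, 133 and 164 CPM under mock. The plt2 groups overlapped and the gPLT2 groups did not. The response difference was -3.95 (SE 0.28, adjusted p = 4.72e-10). CYCP4;1 (chr2:18441828-18443405, minus strand), a P-type cyclin, had 1.75 to 4.23 CPM in gPLT2 at 5 nM, against 55.9, 75.6, 50.3, 61.2 and 67 CPM in gPLT2 mock. It had 43.8, 38.5, 27.8, 29.9 and 29.7 CPM in plt2 at 5 nM, against 77.3, 59.8, 106, 82.2 and 65.6 CPM in plt2 mock. Both lines fell, with a response of -4.34 in gPLT2 and -1.23 in plt2, and the difference was -3.11 (SE 0.26, adjusted p = 9.4e-09).

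AT4G11210, a dirigent-like gene (chr4:6832650-6833498, plus strand), stood at or under the 3-count floor in every gPLT2 library at 5 nM, at most 0.839 CPM, against 25.9 to 37.5 CPM in gPLT2 mock. In plt2 it had 12.6 to 18.9 CPM at 5 nM, against 28.4 to 54.5 CPM under mock. Its difference passed the test (adjusted p = 2.12e-08), and both lines fell. Among the rest, the vacuolar calcium-binding protein-like gene AT1G62480 was the most abundant, with 108 to 169 CPM in gPLT2 at 5 nM, against 666 to 851 CPM in gPLT2 mock. It had 511 to 641 CPM in plt2 at 5 nM, against 573 to 880 CPM in plt2 mock, and differed by -2.20 (SE 0.19). BME3, a GATA-type transcription factor, differed by -1.86 (SE 0.17) and PKS1, a substrate of phytochrome kinase activity, by -3.10 (SE 0.29). AT1G62660, of the glycosyl hydrolase family that holds invertases, differed by -2.82 (SE 0.26). AT5G35740, with a carbohydrate-binding X8 domain, differed by -2.84 (SE 0.22) and AT5G51490, of the invertase and pectin methylesterase inhibitor superfamily, by -2.44 (SE 0.22). The largest adjusted p among these 6 genes was 4.34e-08.

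**Figure D2:**
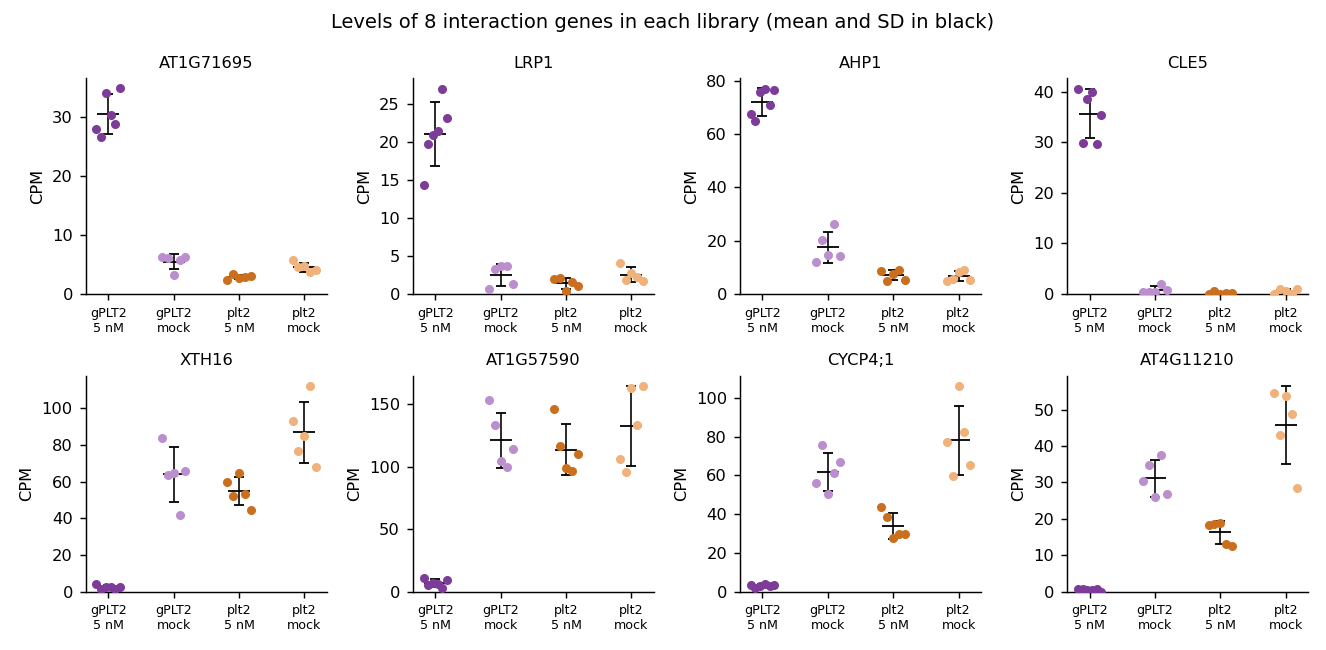
CPM of 8 genes in each of the 21 libraries, with gPLT2 at 5 nM, gPLT2 mock, plt2 at 5 nM and plt2 mock from left to right. Points are libraries, and black bars are the mean ± SD (n = 6, 5, 5 and 5). In the upper row gPLT2 at 5 nM stands above the other groups, and in the lower row it lies near 0.

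Genes with opposite responses were led by AT4G26540, a receptor kinase described with the pathway, followed by GSTF9, CuAO1 and XPL1. GSTF9 (chr2:13138882-13140392, plus strand) encodes a glutathione S-transferase. It had at most 295 CPM in gPLT2 at 5 nM (median 278), against 428, 360, 470, 348 and 463 CPM in gPLT2 mock. It had 358, 409, 354, 339 and 388 CPM in plt2 at 5 nM, against 199, 204, 223, 180 and 258 CPM in plt2 mock. The order of the lines thus turned over: gPLT2 was the higher line under mock and the lower one at 5 nM. The response was -0.68 in gPLT2 and 0.77 in plt2, a difference of -1.45 (SE 0.16, adjusted p = 4.31e-07). CuAO1, a copper amine oxidase, which makes hydrogen peroxide as it oxidises polyamines, had responses of -0.87 in gPLT2 and 0.73 in plt2. For XPL1, a methyltransferase of phospholipid synthesis, they were -0.85 in gPLT2 and 0.57 in plt2.

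Genes past the threshold in plt2 and not in gPLT2 were led by AT5G01210, AT5G64100, COR413-PM1 and AT1G13930. The peroxidase gene AT5G64100 (chr5:25650567-25652247, minus strand) varied widely, with 9.61 to 87.0 CPM in gPLT2 at 5 nM (median 26.3), against 27.2, 34.8, 11.7, 20.4 and 13.3 CPM in gPLT2 mock. It had 0.329, 0, 1.72, 0.793 and 0.258 CPM in plt2 at 5 nM, against 28.8, 24, 11.2, 35.3 and 3.3 CPM in plt2 mock. It was therefore almost lost from plt2 at 5 nM, with a response of -5.05 in plt2 and one of 0.70 in gPLT2 that was not called. The difference was 5.75 (SE 0.94, adjusted p = 0.000165). The acyltransferase gene AT5G01210 was at or under the 3-count floor in all 5 plt2 libraries at 5 nM, and had 2.62 to 6.02 CPM in gPLT2 at 5 nM, 1.36 to 5.86 CPM in gPLT2 mock and 2.03 to 12.5 CPM in plt2 mock (adjusted p = 4.83e-05). COR413-PM1, a cold-regulated membrane protein, differed by 1.38 (SE 0.24), and AT1G13930, annotated as oleosin-B3-like, by 2.53 (SE 0.44). Counting rules for reads shared by similar genes are not given in the sources used here, so values of close relatives such as peroxidase, XTH and the neighbouring CDC20 genes are uncertain.

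Where both lines moved the same way, XTH16, CYCP4;1 and AT4G11210 led, followed by AT1G70950, a TPX2-family gene with responses of -2.59 in gPLT2 and -0.75 in plt2. Genes called in neither response were led by MEB1, TPC1, WRKY72 and PRR2. Their differences of -0.53, -0.53, -0.73 and 0.99 were each made of smaller values of opposite sign in the lines, for example -0.23 in gPLT2 and 0.30 in plt2 for the vacuolar channel gene TPC1. The calls of MEB1, TPC1 and WRKY72 were lost with total-count scaling, and those of MEB1 and TPC1 also with no expression filter.

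Of 10 genes for RGF precursors and TPST, the enzyme that sulfates the peptides, 7 passed the expression filter. In gPLT2 all 7 fell and in plt2 4 of 7 fell, against 24.7% and 8.19% of all tested genes called lower in these responses. The response difference passed the test for 3 of 7, all negative, against 6.34% of all tested genes, with a list median of -0.62. RGF2 (chr1:4668366-4669471, plus strand) had at most 2.62 CPM in gPLT2 at 5 nM (median 2.22), against 21, 20.5, 15.2, 26.1 and 19.5 CPM in gPLT2 mock. It had 16.5, 12.3, 15.8, 11.4 and 11.1 CPM in plt2 at 5 nM, against 23.8, 28.3, 40.6, 29.9 and 31.4 CPM in plt2 mock. Treated and mock libraries did not overlap in either line, and the difference was -2.08 (SE 0.28, adjusted p = 1.69e-05). RGF3 (chr2:1276683-1277761, minus strand) had 7.8 to 21.8 CPM in gPLT2 at 5 nM (median 11.6), against 121, 123, 66.7, 122 and 105 CPM in gPLT2 mock. It had 98.2, 66, 70, 42 and 69.9 CPM in plt2 at 5 nM, against 123, 178, 190, 175 and 135 CPM in plt2 mock, and the difference was -1.90 (SE 0.31, adjusted p = 0.000152).

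RGF1, the gene of the applied peptide, was low everywhere, at 0.838 ± 0.72 CPM in gPLT2 at 5 nM (SD, n = 6) and 5.74 ± 2.0 CPM in gPLT2 mock (n = 5). It averaged 4.16 ± 2.2 CPM in plt2 at 5 nM and 4.32 ± 0.24 CPM in plt2 mock (n = 5 each). Its difference of -2.69 (SE 0.59) passed the test (adjusted p = 0.00403). The differences of RGF4 (-0.53, adjusted p = 0.142), TPST (-0.13, adjusted p = 0.664), RGF8 (-0.25, adjusted p = 0.666) and RGF7 (-0.62, adjusted p = 0.686) did not pass.

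The 5 leucine-rich repeat receptor kinase genes listed as RGF1 receptors split in direction, 2 negative, 2 positive and 1 not called. Of all tested genes, 6.34% had a negative and 3.42% a positive difference that passed. AT4G26540 (chr4:13394447-13398307, minus strand) had 19.9 to 33.3 CPM in gPLT2 at 5 nM (median 24.6), against 59.7, 51.1, 71.5, 60.4 and 62.3 CPM in gPLT2 mock. It had 89.6, 86.9, 77.2, 84.3 and 85.7 CPM in plt2 at 5 nM, against 62.7, 64.1, 58.1, 72.7 and 63.4 CPM in plt2 mock. The mock groups of both lines overlapped, and RGF1 moved them apart in opposite directions without overlap. The responses were -1.29 in gPLT2 and 0.38 in plt2, and the difference was -1.67 (SE 0.17, adjusted p = 1.13e-07). AT5G56040 (chr5:22694823-22698645, plus strand) had 52.7 to 69.9 CPM in gPLT2 at 5 nM (median 66.0), against 108, 94.8, 97.9, 76.7 and 107 CPM in gPLT2 mock. It had 149, 136, 126, 149 and 134 CPM in plt2 at 5 nM, against 123, 86.2, 90, 103 and 103 CPM in plt2 mock. It thus followed AT4G26540, with a difference of -1.08 (SE 0.15, adjusted p = 3.16e-05).

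AT5G48940 and AT1G34110 went the other way. AT5G48940 (chr5:19839663-19843859, plus strand) had 190 to 254 CPM in gPLT2 at 5 nM (median 235), against 112, 108, 130, 119 and 112 CPM in gPLT2 mock. It had 77.1, 84.1, 82.7, 108 and 100 CPM in plt2 at 5 nM, against 79.4, 79.3, 87.2, 91.6 and 70.2 CPM in plt2 mock. Treated libraries stood above mock without overlap in gPLT2 and overlapped with mock in plt2. The difference was 0.80 (SE 0.15, adjusted p = 0.000689). AT1G34110 averaged 159 ± 6.9 CPM in gPLT2 at 5 nM and 113 ± 11 CPM in gPLT2 mock. In plt2 it averaged 85.5 ± 7.7 CPM at 5 nM and 89.4 ± 12 CPM under mock (SD), and it differed by 0.54 (SE 0.14, adjusted p = 0.0117). AT3G24240 rose in both lines, by 0.68 in gPLT2 and 0.52 in plt2, and its difference of 0.17 did not pass (adjusted p = 0.541). The calls of AT5G56040 and AT1G34110 were lost with total-count scaling.

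Downstream of the receptors, 2 of 12 tested genes passed, beside 9.76% of all tested genes, a share too close to read as a result about the list. MKK5, a kinase of the mitogen-activated cascade, differed by -0.62 (SE 0.16, adjusted p = 0.0113), from responses of -0.28 in gPLT2 and 0.34 in plt2, and lost its call with total-count scaling. AT2G12646, a PLATZ-family transcription factor gene, rose in both lines, by 1.21 in gPLT2 and 0.51 in plt2. It averaged 58.0 ± 6.1 CPM in gPLT2 at 5 nM, 24.5 ± 2.9 CPM in gPLT2 mock, 31.9 ± 5.0 CPM in plt2 at 5 nM and 21.7 ± 6.8 CPM in plt2 mock. Its difference of 0.69 (SE 0.22, adjusted p = 0.041) was lost under 4 alternatives and without 13 of the 21 libraries in turn. The differences of MPK3 (0.48), UPB1 (1.09), SERK4 (-0.52), SERK2 (-0.33), UBP12 (0.17), MPK6 (0.10), BAK1 (0.08), MKK4 (-0.16), SERK1 (-0.05) and UBP13 (0.04) did not pass, with adjusted p of 0.159 or more.

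Of 8 PLETHORA and AINTEGUMENTA-like genes, 5 were tested. PLT1 (chr3:7300444-7303693, plus strand), the closest relative of PLT2 in function, had 5.79 to 9.97 CPM in gPLT2 at 5 nM (median 8.16), against 20, 21.5, 18.2, 24.1 and 17.9 CPM in gPLT2 mock. It had 33.3, 30.5, 40.1, 26.2 and 28.9 CPM in plt2 at 5 nM, against 34.3, 31.2, 44.1, 34.3 and 40.8 CPM in plt2 mock. PLT1 was lower in gPLT2 than in plt2 already under mock, and the gap was wider at 5 nM, with a response difference of -1.12 (SE 0.22, adjusted p = 0.00148). This call was lost with total-count scaling. AIL6 (0.19, adjusted p = 0.427), BBM (-0.34, adjusted p = 0.556) and AIL5 (0.41, adjusted p = 0.657) did not pass. None of 6 tested genes of the stem cell niche and the SHR-SCR network passed, SHR (-0.29, adjusted p = 0.409) and RBR1 (-0.24, adjusted p = 0.5) being nearest.

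**Figure D3:**
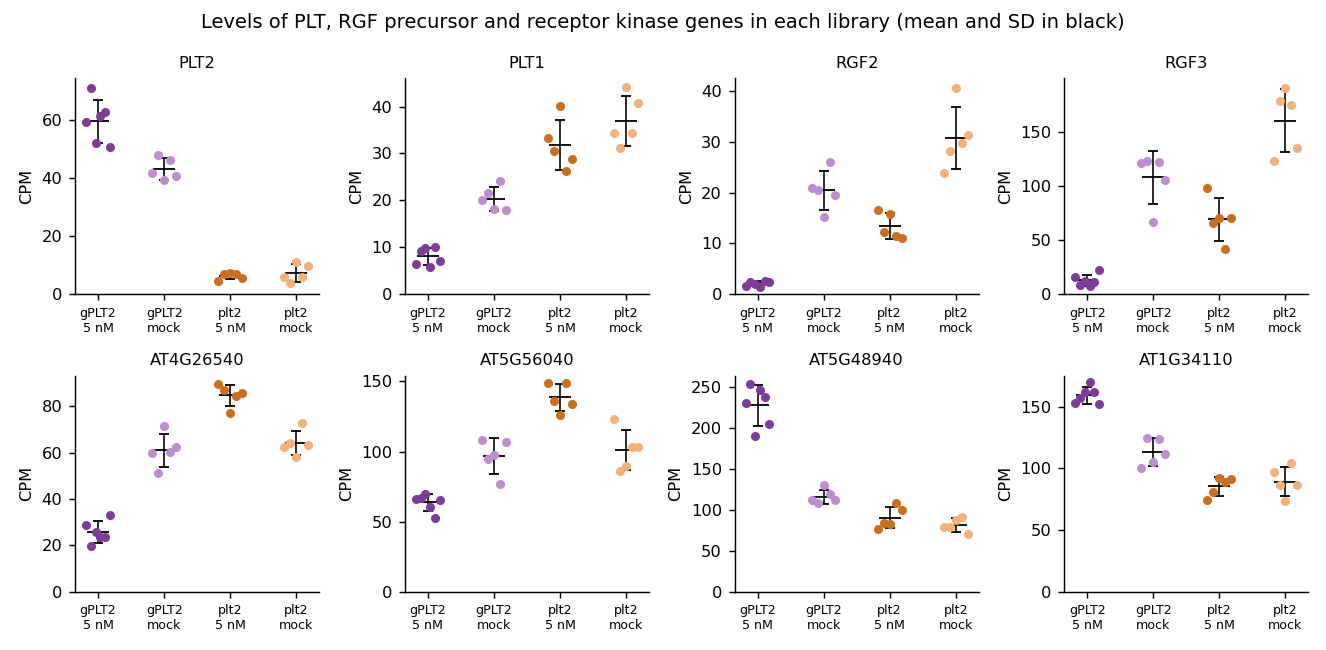
CPM of PLT2, PLT1, the precursor genes RGF2 and RGF3 and 4 receptor kinase genes in each library, with gPLT2 at 5 nM, gPLT2 mock, plt2 at 5 nM and plt2 mock from left to right and the mean ± SD in black. RGF2 and RGF3 are lowest in gPLT2 at 5 nM, and AT4G26540 and AT5G56040 move in opposite directions in the lines.

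All 21 listed genes of mitosis and cytokinesis (G2/M) were tested. In gPLT2 18 of 21 rose, against 21.7% of all tested genes, and in plt2 none passed the threshold in either direction. The response difference was positive and passed for 11 of 21, against 3.42% of all tested genes, and negative for none. The list median was 0.64 for the difference, 0.73 for the response in gPLT2 and 0.097 for the response in plt2. The count was 4 with total-count scaling, and 8 with organelle loci left out or with a replicate block. With no expression filter or with all 9 groups in one fit it was 12. It was 7 without plt2 mock replicate 2, without plt2 5 nM replicate 2, without gPLT2 mock replicate 5 or without gPLT2 5 nM replicate 4.

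CYCB2;2, a B-type cyclin that drives entry into mitosis, had 36.4 to 48.1 CPM in gPLT2 at 5 nM (median 40.5), against 21.7, 21.8, 21.4, 20.4 and 28.5 CPM in gPLT2 mock. It had 22.7, 27.1, 25.7, 26.2 and 27.9 CPM in plt2 at 5 nM, against 29.1, 36.8, 24.7, 26.8 and 30.9 CPM in plt2 mock. Treated and mock libraries were separate in gPLT2 and overlapped in plt2, and the difference was 1.04 (SE 0.18, adjusted p = 0.000229). SYP111, the syntaxin also called KNOLLE that fuses vesicles into the new cell plate, had 50.9 to 84.7 CPM in gPLT2 at 5 nM (median 73.3), against 29.3, 24.4, 41.6, 30.2 and 36.1 CPM in gPLT2 mock. It had 32.6, 39.8, 31.2, 48.6 and 43.1 CPM in plt2 at 5 nM, against 34.5, 37.4, 31.2, 42.5 and 56.8 CPM in plt2 mock, with a difference of 1.12 (SE 0.23, adjusted p = 0.00201). CYCB2;3 differed by 0.94 (SE 0.21, adjusted p = 0.00447) and CDC20.2, an activator of the anaphase-promoting complex, by 0.80 (SE 0.19, adjusted p = 0.00818). The other 7 were CYC1BAT (0.78), the cytokinesis kinesin HIK (0.78), the mitotic kinase CDKB2;1 (0.64), CYCB1;1 (0.83, adjusted p = 0.0343), CDC20.1 (0.49, adjusted p = 0.041), CYCB1;3 (0.50, adjusted p = 0.0475) and the Aurora kinase AUR2 (0.88, adjusted p = 0.0497). All 7 lost their call with total-count scaling. CDC20.1, CYCB1;3 and AUR2 also lost it with the replicate block and with organelle loci left out. CYCB1;1 and CYCB1;3 lost it with the mitochondrial share as covariate, and CDC20.1 and CYCB1;3 with no expression filter. CYCB1;3 lost it with all 9 groups in one fit as well. Each of the last 4 named lost it without 10 to 15 of the 21 libraries in turn.

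Of 8 B-type cyclins tested, 5 had a called positive difference. The 250 bases before the RefSeq gene start of these 5 are shown with AACGG, the core of the MSA element known from mitotic promoters, searched on both strands. Each sequence runs 5′ to 3′ on the strand of the gene in TAIR10.1, and capitals mark AACGG or its reverse complement.
CYCB2;2 (chr4:16901346-16901595, plus strand): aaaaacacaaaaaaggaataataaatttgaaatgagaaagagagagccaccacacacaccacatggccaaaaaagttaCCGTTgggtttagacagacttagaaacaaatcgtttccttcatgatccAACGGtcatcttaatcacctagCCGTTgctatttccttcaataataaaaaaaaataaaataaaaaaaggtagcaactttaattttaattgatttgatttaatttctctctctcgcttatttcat
CYCB2;3 (chr1:7137829-7138078, minus strand): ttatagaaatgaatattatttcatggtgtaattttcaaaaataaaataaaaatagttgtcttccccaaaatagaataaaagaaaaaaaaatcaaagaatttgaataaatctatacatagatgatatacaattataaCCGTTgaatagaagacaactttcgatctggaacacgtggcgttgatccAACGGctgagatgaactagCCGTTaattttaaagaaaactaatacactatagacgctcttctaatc
CYCB1;1 (chr4:17624309-17624558, minus strand): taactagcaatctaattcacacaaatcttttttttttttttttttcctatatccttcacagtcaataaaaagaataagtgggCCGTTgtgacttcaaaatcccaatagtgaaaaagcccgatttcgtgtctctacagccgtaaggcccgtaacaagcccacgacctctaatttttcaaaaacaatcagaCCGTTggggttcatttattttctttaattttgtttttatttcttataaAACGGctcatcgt
CYC1BAT (chr5:1861704-1861953, minus strand): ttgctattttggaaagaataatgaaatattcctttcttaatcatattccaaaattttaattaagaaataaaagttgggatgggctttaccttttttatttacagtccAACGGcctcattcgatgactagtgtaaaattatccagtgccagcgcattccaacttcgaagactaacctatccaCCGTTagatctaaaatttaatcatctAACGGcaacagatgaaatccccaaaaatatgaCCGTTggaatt
CYCB1;3 (chr3:3627274-3627523, minus strand): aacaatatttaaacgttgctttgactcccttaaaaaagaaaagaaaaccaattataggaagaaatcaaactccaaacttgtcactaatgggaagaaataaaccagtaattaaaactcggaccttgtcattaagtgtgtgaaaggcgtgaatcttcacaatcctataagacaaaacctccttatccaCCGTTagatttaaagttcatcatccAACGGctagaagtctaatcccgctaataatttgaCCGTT
The core stood in 3 places in each of CYCB2;2, CYCB2;3, CYCB1;1 and CYCB1;3 and in 4 places in CYC1BAT. It occurred in 8 of the 11 promoters (72.7%), in 13 of all 21 G2/M promoters (61.9%) and in 22.8% of the 16694 promoters of tested genes. The longer CNAACGG, whose matches lie within those of AACGG, occurred in 7 of the 11 (63.6%) and 9 of all 21 G2/M promoters (42.9%). Of the promoters of all tested genes, 5.31% held it. Over all genes with a positive difference AACGG and CNAACGG had shares of 25.5% and 6.08%, and over all with a negative one 21.7% and 4.96%. CDKB2;1, CDC20.1 and CDC20.2 had no match in this window. A match describes the letters only.

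Of 15 tested genes among cyclin-dependent kinase inhibitors and CCS52 activators, 8 fell and 1 rose in gPLT2 (24.7% and 21.7% of all tested genes), and 4 fell in plt2 (8.19%). The difference was negative and passed for 5, against 6.34% of all tested genes, and did not pass for 10. The list median was -0.58. SIM (chr5:1266625-1267416, minus strand), an inhibitor known for switching cells from division to endoreduplication, had 6.55 to 25.5 CPM in gPLT2 at 5 nM (median 15.6), against 145, 156, 149, 141 and 187 CPM in gPLT2 mock. It had 111, 137, 122, 118 and 127 CPM in plt2 at 5 nM, against 232, 157, 159, 223 and 173 CPM in plt2 mock. The fall was present in both lines and the difference was -2.67 (SE 0.26, adjusted p = 7.04e-08). Its relative LGO (chr3:3281306-3282131, minus strand) had 3.71 to 14.8 CPM in gPLT2 at 5 nM (median 11.3), against 81.7, 81.1, 82.9, 96.2 and 126 CPM in gPLT2 mock. It had 110, 101, 88.2, 76.1 and 96.2 CPM in plt2 at 5 nM, against 153, 114, 130, 145 and 167 CPM in plt2 mock, with a difference of -2.71 (SE 0.28, adjusted p = 2.94e-07).

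FZR2, the gene also called CCS52A1 whose product activates the anaphase-promoting complex for endoreduplication, differed by -1.23 (SE 0.21, adjusted p = 0.000235). The inhibitor-list gene AT5G02420 differed by -1.50 (SE 0.37, adjusted p = 0.0101) and the inhibitor KRP2 by -1.29 (SE 0.38, adjusted p = 0.029). With total-count scaling the calls of FZR2 and KRP2 were lost, and 3 of the 5 were made. KRP2 also lost its call with the mitochondrial share as covariate and without 6 libraries in turn. Among 18 DNA replication genes, 3 had a negative difference that passed, beside 6.34% of all tested genes, CYCA3;1 (-0.97, adjusted p = 0.025), the licensing factor CDT1A (-0.66, adjusted p = 0.0258) and ORC1A (-1.09, adjusted p = 0.0489). The call of ORC1A was lost under 5 alternatives and without 17 of the 21 libraries in turn, that of CYCA3;1 under 3 alternatives and that of CDT1A with total-count scaling, the last 2 also without 2 libraries in turn. Among 8 tested growth-regulating factor genes and their partner, 2 had a positive difference that passed, beside 3.42% of all tested genes. These were AN3 (0.95, SE 0.18, adjusted p = 0.000796), the coactivator also called GIF1, and GRF4 (0.86, SE 0.23, adjusted p = 0.0184). The call of GRF4 was lost with total-count scaling.

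**Figure D4:**
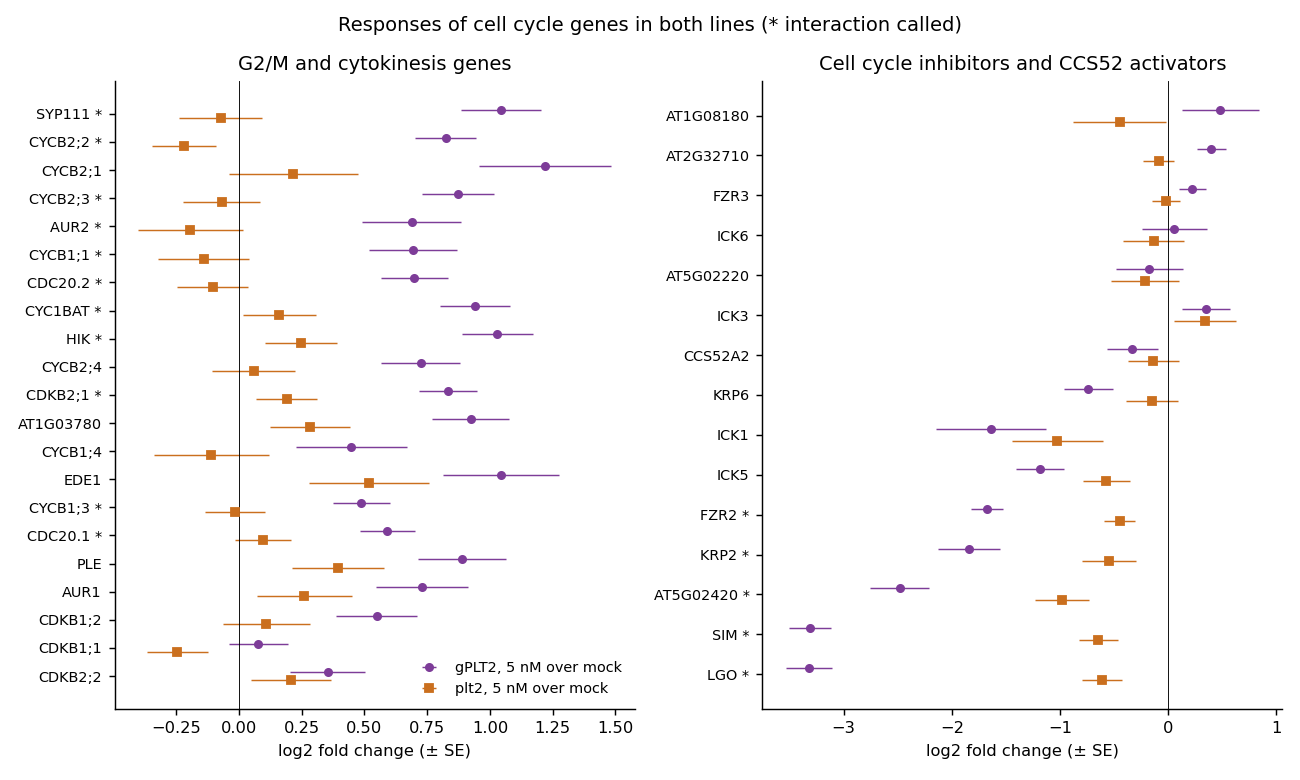
Responses of 21 G2/M genes and 15 cell cycle inhibitor and CCS52 genes, with the log2 fold change of 5 nM over mock in gPLT2 as purple circles and in plt2 as orange squares, each ± SE. Asterisks mark the 11 and 5 genes whose response difference passed the test, and in these the circle stands right of the square in the left panel and left of it in the right panel.

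Of 22 tested class III peroxidases, 14 fell in gPLT2 (24.7% of all tested genes) and 10 in plt2 (8.19%). The difference was negative for 6 (6.34% of all tested genes) and positive for 2 (3.42%), AT1G71695 and AT5G64100. The steepest was AT4G11290, at 3.75 ± 2.0 CPM in gPLT2 at 5 nM and 73.8 ± 16 CPM in gPLT2 mock, against 51.3 ± 4.2 CPM in plt2 at 5 nM and 119 ± 28 CPM in plt2 mock (SD). It differed by -3.06 (SE 0.29, adjusted p = 5.68e-08). RCI3 differed by -2.27 (SE 0.26, adjusted p = 9.75e-07) and AT2G18980 by -2.39 (SE 0.30, adjusted p = 4.53e-06). The other 3 negative differences lay between -1.65 and -0.82. Among 14 tested NADPH oxidase, superoxide dismutase and catalase genes, 2 passed, beside 9.76% of all tested genes, a share too close to read as a result about the list. CAT1, a catalase gene, differed by 0.79 (SE 0.23, adjusted p = 0.0274) and RBOH F, an NADPH oxidase that makes superoxide, by -0.73 (SE 0.24, adjusted p = 0.0479). The call of RBOH F was lost under 3 alternatives and without 14 of the 21 libraries in turn, and that of CAT1 under 2 alternatives and without 4 libraries in turn.

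Expansins loosen the wall without cutting it. Of 17 tested, the difference was negative for 8 (6.34% of all tested genes) and positive for 2 (3.42%), with a list median of -0.81, and 5 negative calls were made with total-count scaling. EXPA11 had 20 ± 5.6 CPM in gPLT2 at 5 nM and 122 ± 13 CPM in gPLT2 mock, against 73.8 ± 20 CPM in plt2 at 5 nM and 130 ± 33 CPM in plt2 mock (SD), a difference of -1.82 (SE 0.27, adjusted p = 4.25e-05). EXLA2 (-2.63, adjusted p = 0.000159), EXPA9 (-0.92, adjusted p = 0.000325) and EXPA15 (-1.63, adjusted p = 0.000634) followed, while EXPA8 (2.44) and EXPA1 (1.39, adjusted p = 0.0356) differed in the other direction. EXPA9 lost its call with total-count scaling, and EXPA1 with the replicate block and without 10 of the 21 libraries in turn. Among 16 tested XTH genes, 3 differences were negative (6.34% of all tested genes), XTH16, XTH21 (-3.39, adjusted p = 4.09e-05) and XTH8 (-1.08, adjusted p = 0.00173). A further 3 were positive (3.42%), TCH4 (1.99, adjusted p = 0.000724), XTH9 (1.26, adjusted p = 0.00708) and XTH31 (adjusted p = 0.0365). XTH31 had 3.12 to 8.39 CPM in gPLT2 at 5 nM and was at or under the 3-count floor in every library of the other 3 groups, so its fitted fold is not given. The positive XTH count was 5 without plt2 mock replicate 5 or with no expression filter. It was 2 without plt2 mock replicate 1 or with the stricter filter. XTH31 lost its call with no expression filter and without 8 of the 21 libraries in turn.

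Of 16 tested aquaporins, the water channels of the membranes, 14 fell in gPLT2 (24.7% of all tested genes) and 13 in plt2 (8.19%). The difference passed for 3, all negative (6.34%), GAMMA-TIP (-1.35, adjusted p = 0.00683), PIP2;4 (-2.11, adjusted p = 0.0099) and PIP1;4 (-0.84, adjusted p = 0.0419). PIP1;4 lost its call under 2 alternatives and without 11 of the 21 libraries in turn, and GAMMA-TIP with total-count scaling. The list median of the difference was 0.046, beside medians of -1.57 for the response in gPLT2 and -1.35 for that in plt2. Of 12 tested polar auxin carriers, 3 had a negative difference that passed, beside 6.34% of all tested genes. The uptake carrier LAX2 differed by 0.70 (SE 0.20, adjusted p = 0.0257). The efflux carriers PIN7 (-0.62, SE 0.13, adjusted p = 0.00325), PIN3 (-0.64, SE 0.17, adjusted p = 0.0169) and PIN4 (-0.63, SE 0.19, adjusted p = 0.0325) differed the other way. These 4 carrier genes lost their call with total-count scaling, and LAX2 also with the replicate number as a block and without each of 2 libraries in turn. PIN4 also lost it with the mitochondrial share as covariate and without 10 of the 21 libraries in turn. Among 10 tested CLE genes, CLE5 was the only call, beside 9.76% of all tested genes, a share too close to read as a result about the list.

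**Figure D5:**
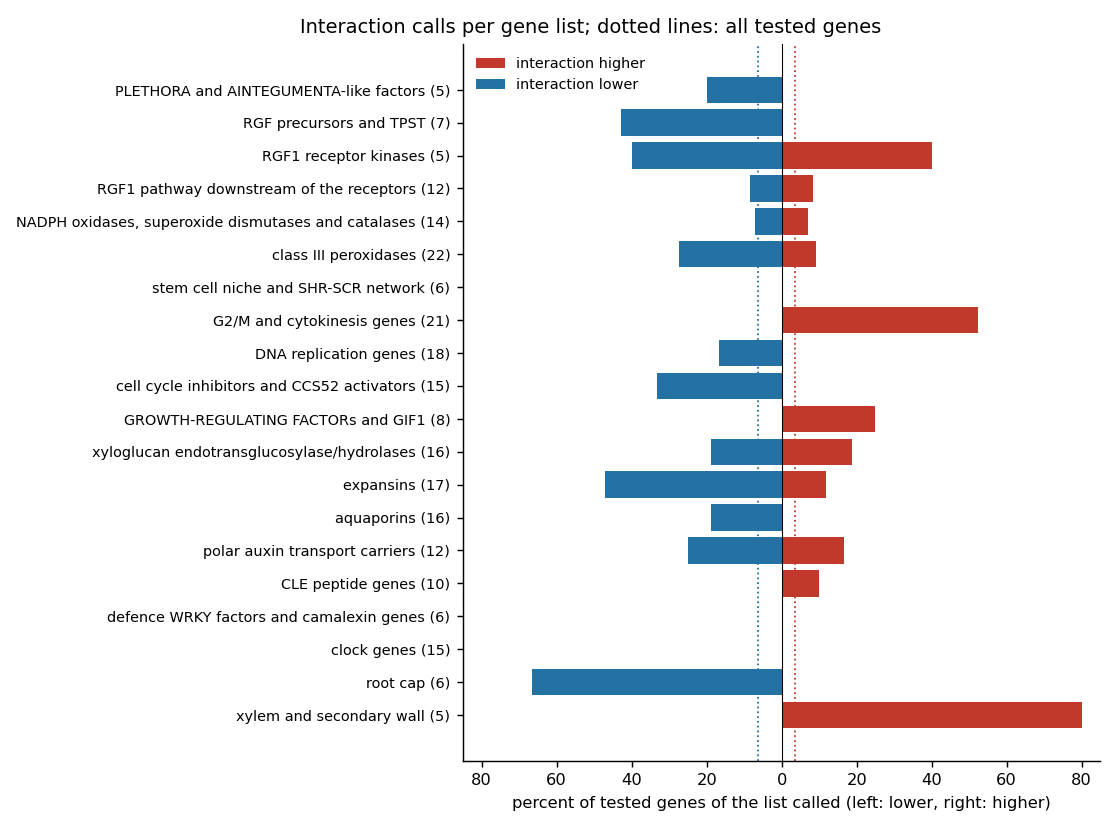
Percent of the tested genes of each list whose response difference was called, negative to the left and positive to the right, with the number of genes tested in brackets. Lists with fewer than 5 tested genes are left out, and the dotted lines mark 6.34% and 3.42%, the shares among all tested genes. The bars of the G2/M and xylem lists point right, those of the root cap, RGF precursor and inhibitor lists left, and the clock, stem cell niche and defence lists have none.

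Markers of other cell types moved with these groups, and their part in the results was not tested. All 6 root cap markers were tested and fell in gPLT2 (24.7% of all tested genes), and none passed in plt2 (8.19% lower). Of the 6 differences 4 were negative and passed (6.34%), FEZ (-1.50, lost with total-count scaling), SMB (-1.05), NAC015 (-1.38) and NAC070 (-1.31). The summed root cap level was 89.4 to 233 CPM in gPLT2 at 5 nM (median 169) and 357 to 610 CPM in gPLT2 mock (median 544). In plt2 it was 259 to 482 CPM at 5 nM (median 445) and 306 to 907 CPM under mock (median 625). Of 10 xylem and secondary wall markers 5 were tested, and 4 differences were positive and passed (3.42% of all tested genes), XCP1 (1.81, adjusted p = 0.0051), XCP2 (2.09, adjusted p = 0.0151), CESA4 (2.43, adjusted p = 0.0295) and IRX3 (1.64, adjusted p = 0.0397). IRX3 lost its call with the replicate block, with no expression filter and without 15 of the 21 libraries in turn. The summed level of the 10 was 18.1 to 55.8 CPM in gPLT2 at 5 nM and 14.4 to 22.2 CPM in gPLT2 mock, and 5.55 to 10.3 CPM in plt2 at 5 nM and 15.1 to 24.7 CPM in plt2 mock. The plt2 groups did not overlap, so the fall in plt2 entered the difference. The xylem count was 2 without plt2 5 nM replicate 2 or any of gPLT2 5 nM replicates 3, 4 and 6, and 1 with the stricter filter, which tested fewer genes.

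Green tissue markers, 5 in all with CAB1 alone tested, summed to 12.6 to 18.3 CPM in gPLT2 at 5 nM and 1.63 to 6.52 CPM in gPLT2 mock. They summed to 2.40 to 3.96 CPM in plt2 at 5 nM and 1.87 to 4.80 CPM in plt2 mock. CAB1, a chlorophyll-binding protein, differed by 2.08 (SE 0.47, adjusted p = 0.00463). The phloem marker SEOR1 passed (adjusted p = 0.0313) with 2.45 to 5.77 CPM in gPLT2 at 5 nM and at most 0.996 CPM in any library of the other 3 groups. Its call was lost with the replicate block and without 6 of the 16 libraries that could be left out with the gene still tested. No difference passed for root hair (RSL1 -0.70, adjusted p = 0.185, and LRX1 -1.12, adjusted p = 0.316), non-hair (MYB66 -0.60, adjusted p = 0.0797, and GL2 0.29, adjusted p = 0.336) or endodermis markers (MYB36 0.71, adjusted p = 0.205, and ESB1 0.15, adjusted p = 0.9). The summed root hair level was 20.7 to 32.1 CPM in gPLT2 at 5 nM and 40.7 to 57.5 CPM in gPLT2 mock, and 24.4 to 45.6 CPM in plt2 at 5 nM and 48.1 to 78.9 CPM in plt2 mock. Likewise none passed among 15 clock genes (PRR7 0.65, adjusted p = 0.13, and ELF4 1.38, adjusted p = 0.148) or 6 tested defence genes (WRKY30 -1.25, adjusted p = 0.12, and WRKY53 -0.73, adjusted p = 0.409).

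The 1644 genes were then followed in libraries that the response difference did not use. The first set was plt2/gPLT2C212S-GFP, the mutant with the transgene carrying a cysteine to serine change, at 5 nM (n = 6) against mock (n = 5). There 40.2% of tested genes were called, 18.7% higher and 21.5% lower. Of the 576 genes with a positive difference, 566 were tested there, 408 rose (72.1%) and 7 fell, against 18.5% of the 15901 genes tested in both fits that rose. Of the 1068 with a negative difference, 1000 were tested, 841 fell (84.1%) and 9 rose, against 21.5% that fell. This gives the direction of the response in another transgenic line and no difference between lines. XTH16 fell there to 0 to 3.22 CPM at 5 nM, against 22.7 to 44.3 CPM under mock, and CLE5 reached 25.6 to 35.7 CPM at 5 nM, against 0.316 to 2.46 CPM under mock. AT5G64100 rose there to 67.5 to 191 CPM at 5 nM, against 0 to 5.98 CPM under mock, unlike in gPLT2. Of the G2/M genes 18 of 21 rose and 1 fell, all 6 root cap markers fell, and all 5 tested xylem markers rose.

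The second set was gPLT2 against plt2 at 0.3 nM RGF1 (n = 5 each), a difference between lines at one dose rather than a difference of responses. Here 31.3% of tested genes were called. Of the 555 genes of the positive set tested there, 262 were higher in gPLT2 (47.2%) and 15 lower, against 14.3% of all genes tested in both fits that were higher. Of 1047 of the negative set, 747 were lower (71.3%) and 13 higher, against 17% that were lower. CLE5 had 33.3 to 74.3 CPM in gPLT2 at 0.3 nM, against at most 0.403 CPM in plt2 at 0.3 nM. XTH16 had 6.93 to 16.8 CPM in gPLT2 at 0.3 nM, against 62.6 to 107 CPM in plt2 at 0.3 nM. Of the 21 G2/M genes none was higher in gPLT2 at 0.3 nM and 1 was lower, with a list median of -0.18. SIM overlapped between the lines at this dose, with 60.2 to 185 CPM in gPLT2 and 100 to 231 CPM in plt2 (log2 difference -0.48, adjusted p = 0.13).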

How the data were processed

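The deposited values are counts of RNA-seq reads per locus, raw and not normalised, in a table of 36823 loci made by the authors. A deposited FPKM table was not used here. The submitters' processing notes name HISAT2 2.1.0, featureCounts from Subread 2.0.3, DESeq 1.34.0 and the TAIR10 build. Settings, gene models and strand handling are not given in the sources used here. Symbols and coordinates came from RefSeq TAIR10.1, with a record for 36632 loci.

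All 21 libraries of the 4 groups entered one fit in edgeR 4.0.16 (R 4.3.3) with TMM scaling, filterByExpr at a minimum count of 10, the quasi-likelihood test and Benjamini-Hochberg adjustment over all tested genes. A gene was called at an adjusted p under 0.05. The gPLT2C212S and 0.3 nM comparisons were fitted on their own libraries. CPM used nuclear loci, leaving out 191 organelle loci, with TMM factors over all 47 libraries. The floor of 3 counts covers counting error only.

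Named genes were the 10 with the smallest p in each direction among genes averaging 20 or more counts in some group, and the 4 with the smallest p in each response class, plus up to 4 called members of each gene list. Further list members (7 G2/M genes, KRP2, EXPA8, EXPA1, XTH9, XTH31 and PIN4) were named after their values were seen. The genes and lists were chosen with earlier results of these data known. Replicates differed beyond sampling noise in all 45 pairs within groups (chi-square per degree of freedom 3.4 to 23.2). Alternatives were other scaling (DESeq2 1.42.0 size factors, total counts, organelle loci left out), no filter or a minimum count of 30, the DESeq2 test, all 9 groups in one fit, the mitochondrial share as a covariate, a replicate block and each library left out. A result on 1 member of the auxin carrier list is not reported here.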

Additional observations from a re-analysis of the deposited data

Results flagged for a closer look

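The responses of gPLT2 and plt2 to 5 nM RGF1 differed by the test of the difference itself for 1644 genes, which is the comparison described above. AT4G26540 (-1.67), GSTF9 (-1.45), CuAO1 (-1.60) and XPL1 (-1.41) also had opposite and called responses in the lines, with the log2 response difference in brackets.

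For 32 named genes in 4 groups each, 6 of 128 sets of libraries held one library far from the rest of its group, and chance flags about 1 in 20 such sets. In gPLT2 mock, AT1G71695 had a lowest library of 3.24 CPM, with the others at 5.71 to 6.23 CPM. CLE5 had a highest gPLT2 mock library of 2.04 CPM, with the others at 0.326 to 0.813 CPM. AT5G35740 had a lowest gPLT2 mock library of 76.4 CPM, with the others at 99.8 to 109 CPM. AT1G62660 had a highest gPLT2 mock library of 320 CPM, with the others at 221 to 243 CPM, and TPC1 one of 107 CPM, with the others at 82.0 to 87.6 CPM. In plt2 mock, AT5G51490 had a highest library of 74.0 CPM, with the others at 46.9 to 53.1 CPM.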

How the results depend on the processing

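Under 8 of 9 settings other than leaving out a library, between 1506 and 2007 genes had a called response difference, beside 1644. Total-count scaling gave 651, and the plt2 response then counted 1272 genes, the gPLT2 against plt2 difference 419 under mock and 3693 at 5 nM. A covariate for the mitochondrial share gave 4029 genes for the plt2 response and 1424 for the mock difference. The share of positive calls, 35%, was 44.9% with total-count scaling and 26.9% (469 positive, 1276 negative) without organelle loci. Leaving out single libraries gave 1207 to 2246 genes for the response difference and 570 to 1011 for the mock difference, beside 916, with 570 without plt2 mock replicate 1 and 582 without gPLT2 mock replicate 2. No pairing of the samples by replicate number was seen. Same-numbered libraries had correlated deviations over 0.1 in 5 of 30 pairs (median -0.0458), and libraries with different numbers in 31 of 135 pairs (median 0.0177). With the replicate block, 1593 genes were called, 529 positive and 1064 negative. Among 122 genes followed, no direction reversed where the gene was called in the main fit or in the alternative. Sign changes of genes called in neither were not counted. Of 103 called genes, 62 kept their call under every alternative that tested them, and some were not tested in every alternative. Total-count scaling cost 35 genes their call and the block 11. The cause was not tested.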
